A study of Mus musculus with 14 samples.

Results

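Granzymes are serine proteases that natural killer (NK) cells and cytotoxic T cells store in secretory granules, and perforin is the pore-forming protein that lets them into a target cell. Transcripts of 4 granzymes (Gzma, Gzmb, Gzmc and Gzmm) and of perforin (Prf1) were followed in NK cells from spleens and from mammary tumours of mice. The 5 genes were taken by name from a deposited table of 10210 genes. All 5 passed the filter on low counts, also when it was applied to the 7 spleen libraries alone, and were among the 8471 genes tested. In tumour NK cells Gzmb and Gzmc transcripts were higher than in either spleen group, and Prf1 and Gzmm transcripts were lower. Gzma, which held most of the counts of the 5 genes in every library, was lower in each tumour library than in each spleen library but did not pass the test.

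Granzyme B is the granzyme best known for cleaving caspases and starting apoptosis, granzyme A is a trypsin-like protease, and granzyme M cleaves after methionine or leucine. Granzyme C belongs to a rodent group of granzyme B relatives that lie in a gene cluster and appear in strongly activated lymphocytes. Mouse NK cells in the resting spleen are known to hold Gzma protein and much Gzmb transcript with little granzyme B protein, so a transcript level is not a protein level.

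In all, 3 groups of NK libraries were compared, all from BALB/c mice, with an age of 8 weeks that for the tumour-bearing mice is the age at injection. The healthy spleen group (n = 3) came from mice without a tumour, whose sex the labels do not give. The tumour-bearing spleen group (n = 4) and the tumour group (n = 4) came from females given 100000 cells of 4T1-GFP, a mouse mammary carcinoma line that carries green fluorescent protein, into the mammary fat pad. The time from injection to dissection, and whether a library came from 1 animal or a pool, are not given in the labels, so p-values measure the spread between libraries that the design text calls independent, which may be technical. NK cells were enriched with magnetic beads and sorted as CD45+ NKp46+ and negative for CD3, CD14, CD31, EPCAM and GFP. Only tumours were digested with collagenase A and DNase, for 20 min at 37 °C. The spleens were crushed and treated on ice. Libraries read the 3' ends of polyA RNA, and levels are given as CPM, a gene's counts scaled to a common library size, with sizes adjusted by TMM so that most genes are centred.

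The 11 NK libraries held between 559688 and 1966963 counts over listed genes, and 3 counts, the limit that a count of 0 allows, corresponded to 1.54 to 4.62 CPM. This limit covers counting error only. The sorted cells carried NK transcripts: 11 of 12 NK markers were listed, with summed levels of 15929.8 to 16777.2 CPM of listed counts in healthy spleens, 14979.1 to 17160.8 in tumour-bearing spleens and 10459.8 to 12353.4 in tumours. Of 13 T cell markers 4 were listed, with summed levels of 66.1 to 89.2 CPM in healthy spleens, 121 to 150 in tumour-bearing spleens and 83.6 to 149 in tumours. Tumour libraries held more macrophage transcripts (8 of 12 markers listed, 159 to 378 CPM against 84.0 to 104 over both spleen groups, where Csf1r was at 0 in each). They also held more neutrophil transcripts (5 of 10 listed, 56.6 to 153 CPM against 1.40 to 14.2) and carcinoma transcripts (Epcam and Cdh1 of 7, 25.0 to 51.0 CPM against 0 to 3.57). The 8 markers of type 1 innate lymphoid cells, which share NKp46 with NK cells, summed to 932 to 1372 CPM in spleens and 1579 to 2018 CPM in tumours. Transcripts of 16 genes known to respond to cell handling and stress summed to 1558 to 3059 CPM in spleens and 5434 to 7345 CPM in tumours. Of these, 13 were called higher in tumour against tumour-bearing spleen NK cells and 1 lower, where 15.8% and 13.2% of all tested genes were. Against healthy spleens 13 were called higher and 0 lower, where 16.5% and 14.0% of all tested genes were. Endothelial Pecam1 ran from 48.2 to 93.0 CPM in spleens and from 130.5 to 185 CPM in tumours, and Kit, a receptor of mast cells, averaged 14.0, 33.2 and 122 CPM (TMM-scaled) in the 3 groups. The lower NK list and the higher macrophage, neutrophil, carcinoma, innate lymphoid, handling, Pecam1 and Kit levels thus move with the tumour group and with every tumour difference below, and their part in those differences was not tested. In bulk RNA, fewer cells with a transcript and less of it per cell cannot be told apart.

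The genes lie at 3 chromosomes of the mm10 assembly in the GENCODE M21 annotation. Gzmb (chr14:56258838-56262260) and Gzmc (chr14:56231441-56234656) are neighbours on the minus strand of chromosome 14, and Gzmf, Gzmn, Gzmg, Gzmd and Gzme follow them in that order. Gzma lies at chr13:113093825-113100981 on the minus strand. Prf1 (chr10:61297833-61304680) and Gzmm (chr10:79689020-79695261) both lie on the plus strand of chromosome 10. The 250 bases before the RefSeq start of each cluster gene with a value in the table are shown because these genes rose together in tumour NK cells. They are written 5' to 3' on the coding strand from the GRCm38.p6 RefSeq table, in which all 8 genes looked up had an entry. Capitals mark matches to any of 5 motifs searched on both strands: CRE (TGACGTCA), AP-1 (TGANTCA), RUNX (TGTGGT), T-box (TCACACC) and STAT (TTCNNNGAA). A RUNX match on the other strand reads ACCACA, and no matches overlap in the windows shown. The windows are chr14:56262335-56262584 for Gzmb, chr14:56234658-56234907 for Gzmc, chr14:56211408-56211657 for Gzmf, chr14:56132594-56132843 for Gzmd and chr14:56120626-56120875 for Gzme. The Gzmb start in RefSeq lies 74 bases upstream of the GENCODE start, and the last 15 bases for Gzmd and 10 for Gzmf fall inside the GENCODE transcript.
Gzmb: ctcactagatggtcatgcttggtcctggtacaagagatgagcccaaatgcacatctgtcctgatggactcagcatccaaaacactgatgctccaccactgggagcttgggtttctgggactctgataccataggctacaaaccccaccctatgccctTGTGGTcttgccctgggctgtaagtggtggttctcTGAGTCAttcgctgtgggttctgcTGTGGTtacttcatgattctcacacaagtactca
Gzmc: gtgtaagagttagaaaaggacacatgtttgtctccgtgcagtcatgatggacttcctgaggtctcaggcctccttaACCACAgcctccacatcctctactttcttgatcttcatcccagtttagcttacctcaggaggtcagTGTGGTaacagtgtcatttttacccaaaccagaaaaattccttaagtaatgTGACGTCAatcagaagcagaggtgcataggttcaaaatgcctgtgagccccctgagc
Gzmf: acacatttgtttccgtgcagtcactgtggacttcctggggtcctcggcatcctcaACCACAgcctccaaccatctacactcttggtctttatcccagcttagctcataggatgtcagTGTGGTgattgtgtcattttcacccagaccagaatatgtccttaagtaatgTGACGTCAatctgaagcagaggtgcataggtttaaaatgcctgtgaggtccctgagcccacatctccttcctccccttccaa
Gzmd: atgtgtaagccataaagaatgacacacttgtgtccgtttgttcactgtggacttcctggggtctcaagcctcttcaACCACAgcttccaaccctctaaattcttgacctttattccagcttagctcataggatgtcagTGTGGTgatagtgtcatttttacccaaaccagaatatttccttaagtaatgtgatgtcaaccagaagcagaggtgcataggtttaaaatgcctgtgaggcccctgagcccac
Gzme: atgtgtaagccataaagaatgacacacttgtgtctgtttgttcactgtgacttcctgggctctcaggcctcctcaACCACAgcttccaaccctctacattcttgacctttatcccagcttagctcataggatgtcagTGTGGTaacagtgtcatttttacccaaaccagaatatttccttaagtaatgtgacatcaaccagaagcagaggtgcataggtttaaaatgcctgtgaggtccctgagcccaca

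The 4 sequences of Gzmc, Gzmf, Gzmd and Gzme were alike, with identities from 84.4% (Gzmc and Gzmd, over 244 aligned bases) to 95.6% (Gzmd and Gzme, over 249). The Gzmb window did not align with them, its longest run shared with any of the 4 being 9 bases. The CRE letters TGACGTCA stood 57 bases before the start of Gzmc and 82 before that of Gzmf, and such a match occurs in 1.55% of the 32851 promoter windows of the same length in the table. Gzmd and Gzme did not hold those 8 letters in this window. The AP-1 letters stood 58 bases before the start of Gzmb, and 6.75% of windows hold a match. RUNX letters occurred at 2 places in each of the 5 windows, and 14.0% of windows overall hold at least 1 match. They were not particular to these genes among those looked up. RUNX letters also stood 50 bases before the start of Gzma, 130 before that of Prf1 and 247 before 1 of 2 starts of Gzmm. A letter match is a description of the sequence and not a bound site.

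The order of groups for Gzmb was healthy spleen, then tumour-bearing spleen, then tumour, with no overlap between any pair. Gzmb levels were 442, 543 and 356 CPM in the healthy spleen libraries 1 to 3. They were 1031, 1162, 1181 and 1174 CPM in the tumour-bearing spleen libraries and 2298, 1949, 1931 and 2346 CPM in the tumour libraries. Group means were 447 ± 93.4 CPM (SD, n = 3), 1137 ± 70.9 (n = 4) and 2131 ± 221 (n = 4). The Gzmb difference between tumour and tumour-bearing spleen was 1.87-fold (log2 0.91, SE 0.15, 95% interval 0.60 to 1.22, adjusted p = 0.00011). In that contrast 15.8% of tested genes were called higher and 16.5% had every tumour library above every spleen library, so a called rise alone does not set Gzmb apart from other genes. Against healthy spleens Gzmb was 4.76-fold higher in tumours (log2 2.25, SE 0.17, adjusted p = 8.49e-09), where 16.5% of genes were called higher and 18.5% had all libraries higher.

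Gzmb was also the 1 member called between the spleens of tumour-bearing and healthy mice, at 2.54-fold (log2 1.34, SE 0.17, 95% interval 0.99 to 1.69, adjusted p = 0.000135). Only 1.23% of tested genes were called higher there and 0.354% lower, and 6.52% of genes had all libraries higher. Both spleen groups were prepared in the same way, and the summed handling transcripts nevertheless ran from 1558 to 2069 CPM in healthy and from 2204 to 3059 CPM in tumour-bearing spleens, with 3 of the 16 genes called higher. Levels of some marker lists for other cells also differed without overlap. Summed T cell markers (4 of 13 listed) held 66.1 to 89.2 CPM of listed counts in healthy and 121 to 150 in tumour-bearing spleens. Of these, Cd3d was at 28.1 ± 9.11 and 80.2 ± 19.1 TMM-scaled CPM and Cd3g at 32.2 ± 9.42 and 45.5 ± 5.57. Cd4 went the other way, at a few CPM. Dendritic cell markers (Zbtb46 and Itgax of 7) were at 171 to 178 and 250.2 to 320 CPM. Of 9 mast cell genes only Kit and Mcpt8 were listed, with Kit at 14.0 ± 1.60 and 33.2 ± 5.90 TMM-scaled CPM. Whether these marker transcripts came from other cells or from the NK cells was not tested. The part of these transcripts in the Gzmb difference was not tested. The 7 spleen libraries also fell on 2 sides of their first principal component after group means were removed, which carried 59.4% of that variance and matched no label. Healthy replicate 1 and tumour-bearing replicates 1 and 2 lay on side A, and the other 4 on side B. Gzmb on side A was 442 CPM in the healthy library and 1031 and 1162 CPM in the tumour-bearing libraries. On side B it was 356 and 543 CPM in healthy and 1174 and 1181 CPM in tumour-bearing libraries. Since the spleen groups did not overlap, Gzmb had to differ on each side, which is no added support.

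**Figure D1:**
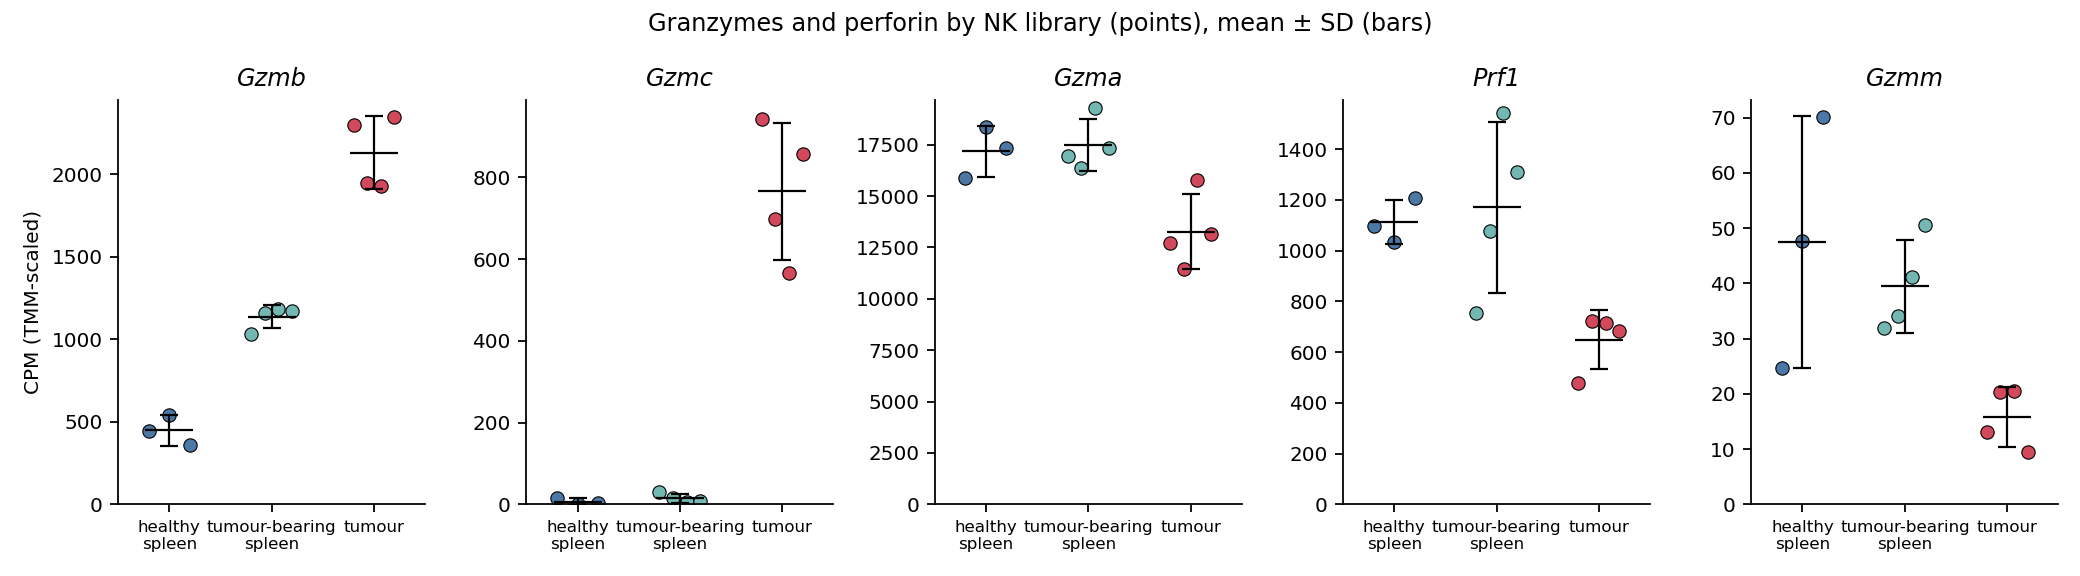
Levels in CPM (linear axes from 0, TMM-scaled) of the 5 genes, 1 point per NK library, with bars at the mean ± SD of healthy spleen (n = 3), tumour-bearing spleen (n = 4) and tumour (n = 4). In every panel the tumour points lie outside the range of both spleen groups, above it for Gzmb and Gzmc and below it for Gzma, Prf1 and Gzmm. For Gzma the gap is narrow, with a highest tumour level of 15779.6 and a lowest spleen level of 15881 CPM. Over all tested genes, 16.5% had all tumour libraries above and 13.3% below all tumour-bearing spleen libraries. Against healthy spleens these shares were 18.5% and 16.3%.

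Gzmc was low in spleens and abundant in tumours. Its raw counts were 10, 3 and 3 in the healthy spleen libraries, 39, 29, 9 and 11 in the tumour-bearing spleen libraries and 1150, 481, 940 and 901 in the tumour libraries. In CPM these were 15.4, 1.60 and 2.48, then 29.7, 16.2, 4.63 and 7.96, then 943, 697, 565 and 857. The lowest tumour library thus lay far above the highest spleen library, while the spleen groups overlapped. Group means were 6.50 ± 7.73 CPM (SD, n = 3), 14.6 ± 11.2 (n = 4) and 765 ± 168 (n = 4). Gzmc was 54.1-fold higher in tumour than in tumour-bearing spleen (95% interval 24.5 to 119.9, log2 5.76, SE 0.51, adjusted p = 2.24e-05) and 166-fold higher than in healthy spleen (55.9 to 494.9, log2 7.38, SE 0.70, adjusted p = 3.52e-05). The size of the difference from healthy spleens rested on single libraries, at log2 8.55 without healthy replicate 1 and 6.70 without healthy replicate 2. Against the tumour-bearing libraries 1 and 2 alone Gzmc gave log2 5.09, and against libraries 3 and 4 alone 6.92.

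Between the spleen groups the Gzmc difference was 3.07-fold with a wide interval (0.773 to 12.2, log2 1.62, SE 0.88, adjusted p = 0.568). Gzmc was higher in the spleen libraries of side A than in those of side B. The share of all genes that part by side was not counted, so this does not set Gzmc apart. On side A it was 15.4 CPM in the healthy library and 16.2 and 29.7 CPM in the tumour-bearing libraries. On side B it was 1.60 and 2.48 CPM in healthy and 4.63 and 7.96 CPM in tumour-bearing libraries. With the side as a block the difference was log2 0.96 (SE 0.42, adjusted p = 0.167), so it did not pass the test in either fit. The side was itself read from the spread of these libraries. The healthy libraries of side B held 3 counts each, at the limit.

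The other genes of the cluster that the table lists, Gzmf, Gzmd and Gzme, were likewise higher in tumours. They encode further granzymes of the granzyme B group. Gzmd had 57, 35, 84 and 77 counts in the tumour libraries, against a sum of 5 over the tumour-bearing spleen libraries, 4 of them in replicate 1, and of 1 over the healthy libraries. Gzme had 42, 23, 26 and 36 counts in tumours and 1 in each spleen group, and Gzmf had 23, 8, 22 and 28 in tumours, 0 in healthy spleens and 2 in tumour-bearing spleens. Mean tumour levels were 55.3 ± 12.1 CPM for Gzmd, 29.4 ± 9.19 for Gzme and 17.6 ± 6.79 for Gzmf (SD, n = 4). The ratio of pooled CPM over tumour-bearing spleens was 70.3 for Gzmd (exact counting interval 29.8 to 218), 176 for Gzme (31.1 to 7027, from 1 spleen count) and 56.3 for Gzmf (15.1 to 473, from 2). Without tumour-bearing replicate 1 the ratio was 280 for Gzmd (49.8 to 11099.5) and 89.6 for Gzmf (15.6 to 3583), each from 1 spleen count. These intervals cover counting error only. Over healthy spleens Gzmf was at least 21.8-fold higher, taking 3 counts over the group as the floor. The 3 genes passed the filter on low counts only through the tumour libraries, so that they had to be higher there, and a call of higher adds nothing to the counts.

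Counts of Gzmd, Gzme and Gzmf are uncertain as values of single genes, since their GENCODE transcripts were 94.8% (Gzmd and Gzme), 87.6% (Gzmd and Gzmf) and 87.6% (Gzme and Gzmf) identical. Among windows of 50 bases in the last 500 bases of the transcript, 20.6% of Gzmd, 18.2% of Gzme and 7.10% of Gzmf occurred in another granzyme. For Gzma, Gzmb, Gzmc and Gzmm the share was 0, and Gzmb and Gzmc were 77.6% identical over 883 aligned bases. Gzmk, a granzyme on chromosome 13 beside Gzma, was not called in any comparison. It had 34.4 ± 13.2 CPM in healthy spleens, 30.4 ± 6.83 in tumour-bearing spleens and 36.5 ± 11.6 in tumours, and tumour against tumour-bearing spleen gave log2 0.30 (adjusted p = 0.384).

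**Figure D2:**
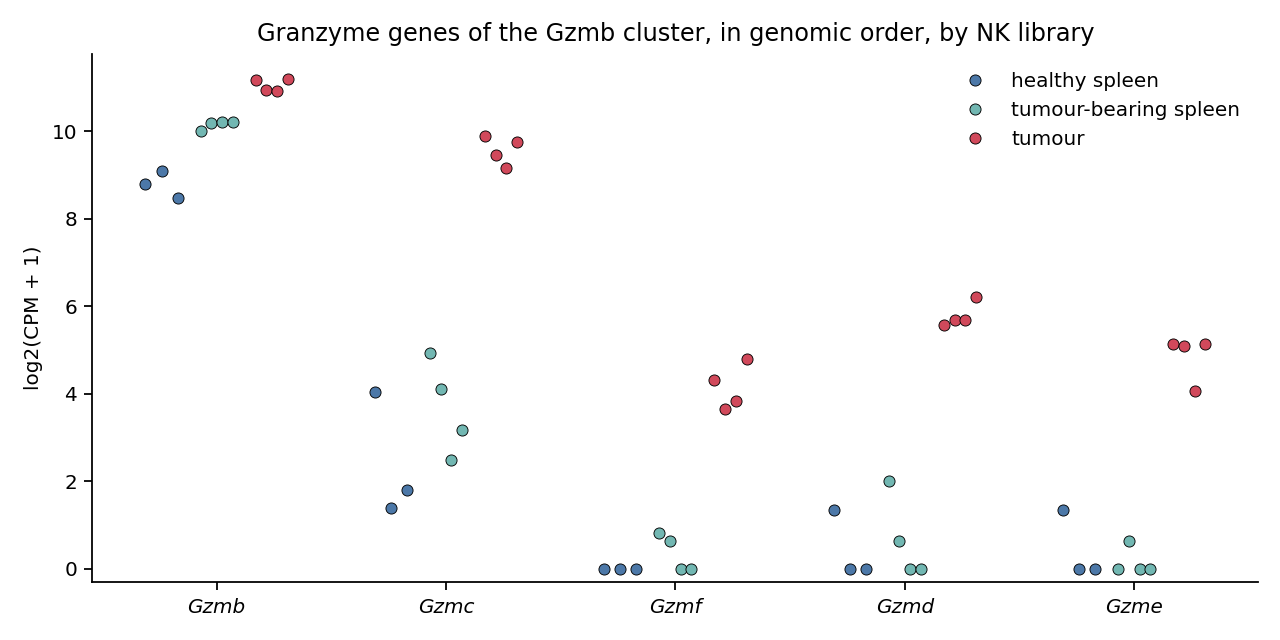
Levels of the 5 chromosome 14 granzyme genes with values, in genomic order, as log2(CPM + 1) with 1 point per NK library. Gzmb is present in all libraries and steps up over the 3 groups, whereas Gzmc, Gzmf, Gzmd and Gzme are higher in the 4 tumour libraries than in any spleen library.

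Perforin transcripts were lower in tumours, where Gzmb was higher. Prf1 levels were 1097, 1033 and 1206 CPM in healthy spleens, 752, 1078, 1541 and 1308 CPM in tumour-bearing spleens and 478, 722, 712 and 683 CPM in tumours. Every tumour library was below every spleen library, and the lowest spleen library, tumour-bearing replicate 1, was the closest to them. Group means were 1112 ± 87.5 CPM (SD, n = 3), 1170 ± 336 (n = 4) and 649 ± 115 (n = 4). Prf1 was 1.80-fold lower in tumours than in tumour-bearing spleens (log2 -0.85, SE 0.19, adjusted p = 0.00222), where 13.2% of genes were called lower and 13.3% had all libraries lower. Against healthy spleens it was 1.71-fold lower (log2 -0.78, SE 0.20, adjusted p = 0.00673), where 14.0% were called lower and 16.3% had all libraries lower.

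The size of the Prf1 difference depended on which tumour-bearing spleens were used. Those of side A held 752 and 1078 CPM and those of side B 1308 and 1541 CPM. Against side A alone the difference was log2 -0.50 and was no longer called (adjusted p = 0.0866), and against side B alone it was log2 -1.17 (adjusted p = 6.85e-05). The healthy libraries showed no such gap, with 1097 CPM on side A and 1033 and 1206 CPM on side B. Between the spleen groups Prf1 gave log2 0.07 (95% interval -0.35 to 0.50, adjusted p = 0.955).

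Gzmm had the lowest counts of the members that fell. They were 16, 89 and 85 in healthy spleens, 42, 61, 80 and 70 in tumour-bearing spleens and 16, 14, 34 and 10 in tumours. Its levels were 24.7, 47.6 and 70.2 CPM in healthy spleens, 32.0, 34.0, 41.2 and 50.6 CPM in tumour-bearing spleens and 13.1, 20.3, 20.4 and 9.51 CPM in tumours. The healthy libraries spread widely, and the highest tumour library still lay below the lowest of them. The spleen levels were 24.7, 32.0 and 34.0 CPM on side A and from 41.2 to 70.2 CPM on side B. The share of all genes that part by side was not counted, so this does not set Gzmm apart. Group means were 47.5 ± 22.7 CPM (SD, n = 3), 39.5 ± 8.41 (n = 4) and 15.8 ± 5.43 (n = 4). Gzmm was 2.48-fold lower in tumours than in tumour-bearing spleens (log2 -1.31, SE 0.30, adjusted p = 0.00263) and 3.10-fold lower than in healthy spleens (log2 -1.63, SE 0.31, adjusted p = 0.000641). In these comparisons 13.2% and 14.0% of all tested genes were called lower. Against the tumour-bearing spleens of side A alone it gave log2 -1.06 (adjusted p = 0.0422), and against those of side B alone -1.55 (adjusted p = 0.0021). The spleen groups overlapped and gave log2 -0.32 (95% interval -0.90 to 0.26, adjusted p = 0.748).

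Gzma levels were 15881, 18353.5 and 17319.7 CPM in healthy spleens, 16941.1, 16375.6, 19298.7 and 17355 CPM in tumour-bearing spleens and 12717.8, 11436.2, 15779.6 and 13160.6 CPM in tumours. Each tumour library was below each spleen library, though tumour replicate 3 and healthy replicate 1 differed little. Gzma differed from tumour-bearing spleens by log2 -0.40 (95% interval -0.73 to -0.07, adjusted p = 0.0653) and from healthy spleens by log2 -0.37 (-0.73 to -0.02, adjusted p = 0.104), and neither passed the test. DESeq2 called both, with log2 -0.41 (adjusted p = 0.00368) and log2 -0.39 (adjusted p = 0.0113). Without tumour replicate 3 the edgeR values were log2 -0.51 (adjusted p = 0.0293) and -0.48 (adjusted p = 0.0464), and without healthy replicate 1 they were -0.40 (adjusted p = 0.0243) and -0.43 (adjusted p = 0.0425). Other left-out libraries weakened the edgeR values. Against tumour-bearing spleens it was log2 -0.35 (adjusted p = 0.183) without tumour-bearing replicate 3. Against healthy spleens it was log2 -0.32 (adjusted p = 0.284) without healthy replicate 2. Over all alternatives and left-out libraries, Gzma stayed uncalled in 14 fits and was called in 5 against tumour-bearing spleens. Against healthy spleens these were 13 and 4. Between the spleen groups the difference was log2 0.03 (95% interval -0.33 to 0.38, adjusted p = 0.986).

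**Figure D3:**
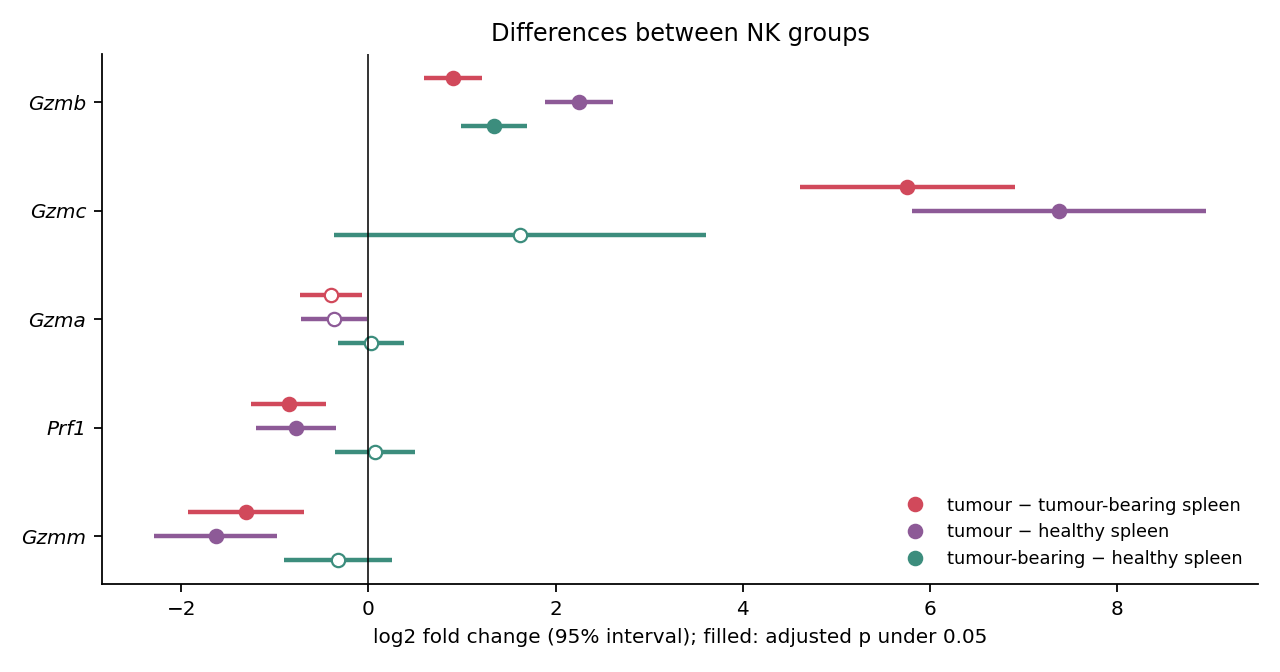
Differences of the 5 genes between NK groups as log2 fold changes (points) with 95% intervals (lines), where filled points passed an adjusted p of 0.05. Gzmb is filled in all 3 comparisons, Gzmc, Prf1 and Gzmm in the 2 comparisons with tumours, and Gzma in none.

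Counting members, 4 of 5 were called in each tumour comparison, 2 higher and 2 lower, and 1 of 5 between the spleen groups. Over all tested genes the share called was 29.0% for tumour against tumour-bearing spleen, 30.5% for tumour against healthy spleen and 1.58% between the spleens. Of the genes called in the tumour comparisons, 54.5% and 54.2% were higher, and under upper-quartile scaling 41.6% and 42.4% were. No member changed direction in the tumour comparisons under that scaling. The 3 comparisons share their groups in pairs, so the members' values in them are not independent of each other.

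The mix of granule transcripts was then followed within libraries, where scaling between libraries plays no part. The 5 genes took 1.90% to 2.10% of all counts in healthy spleens, 1.91% to 2.18% in tumour-bearing spleens and 1.44% to 1.72% in tumours. Counts are not corrected for how well each gene is captured, so each share is read across libraries and not against another gene. Of the members' counts, Gzma held 91.0% to 91.9% in healthy spleens, 87.2% to 90.2% in tumour-bearing spleens and 77.2% to 83.0% in tumours. The Gzmb share was 1.88% to 2.72%, 5.35% to 6.23% and 10.2% to 14.0% in the same order. Gzmc held at most 0.0883% and 0.158% in the spleen groups and between 2.97% and 5.73% in tumours. Prf1 held 5.17% to 6.36%, 4.00% to 6.98% and 2.90% to 4.87%, and Gzmm 0.141% to 0.370%, 0.170% to 0.255% and 0.0557% to 0.137%.

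The count ratio of Gzmb to Prf1 separated the 3 groups without overlap. It ran from 0.296 to 0.526 in healthy spleens, from 0.766 to 1.37 in tumour-bearing spleens and from 2.70 to 4.81 in tumours. The ratio of Gzmb to Gzma did so too, with 0.0206 to 0.0296, 0.0609 to 0.0710 and 0.122 to 0.181. Within tumours the ratio of Gzmb to Gzmc ran from 2.44 to 3.42. Gzmb levels alone also separated the 3 groups, so the separation by these ratios is no added result. The ranges are descriptions and no test was made of them.

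**Figure D4:**
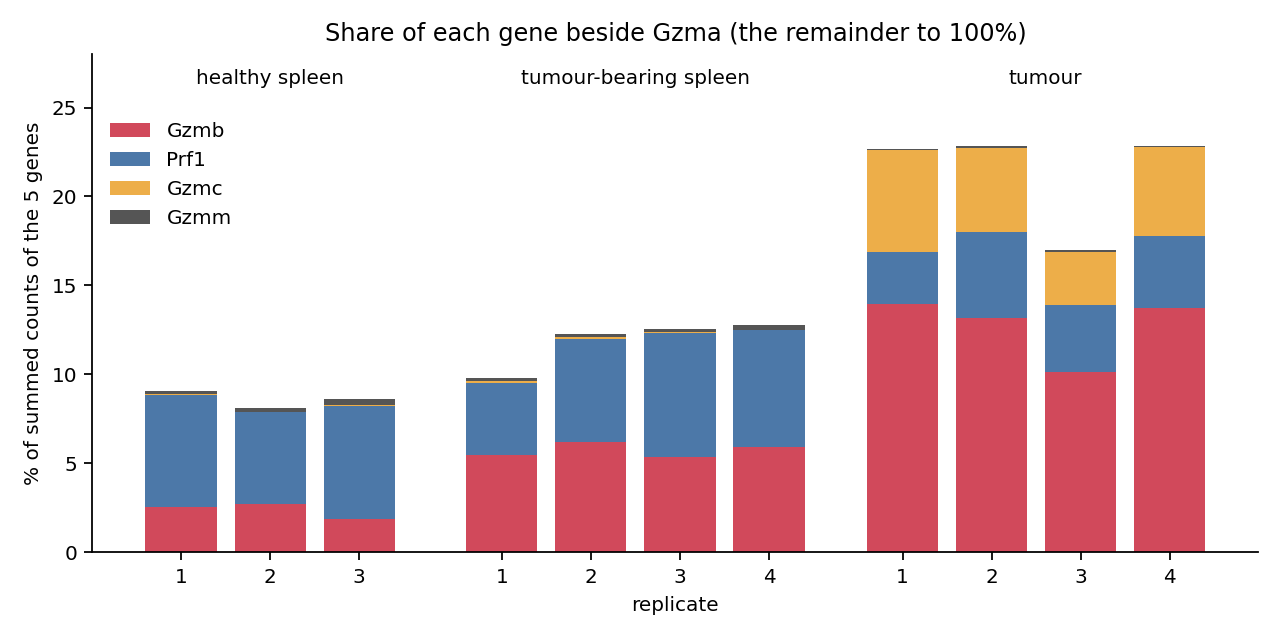
Share of the summed counts of the 5 genes held by Gzmb, Prf1, Gzmc and Gzmm in each NK library (stacked bars from 0, in percent), with Gzma as the remainder to 100%. The part beside Gzma is smallest in the healthy spleen libraries and largest in the tumour libraries, with Gzmb in all groups and Gzmc in the 4 tumour libraries.

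Genes that work with granzymes and perforin were read from 5 lists by role, which hold 54 genes. Of these 46 were tested, and 4 of the 46 (Gzmd, Gzme, Gzmf and Serpinb1a) passed the filter on low counts only through the tumour libraries. The other 42 genes held 9 called higher and 5 lower in tumour against tumour-bearing spleen, or 33.3% against 29.0% of all genes. Against healthy spleens 8 were higher and 4 lower, or 28.6% against 30.5%. The median log2 difference of the 42 genes was 0.14 and 0.16 in these comparisons, against 0.00 and 0.02 over all genes. The shares called on the lists were thus near those of all genes.

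Among 8 tested granule content genes, 3 rose and 1 fell in tumour against tumour-bearing spleen, where 29.0% of all genes were called. Srgn, which encodes serglycin, the proteoglycan that packs granzymes in the granule, was at 901 ± 94.7 CPM in tumour-bearing spleens and 2789 ± 140 CPM in tumours (log2 1.63, adjusted p = 2.7e-08). Mast cells also hold much serglycin. Of the 9 genes read for mast cells only Kit and Mcpt8 were listed, and neither marks mast cells alone. Kit was at 33.2 ± 5.90 CPM in tumour-bearing spleens and 122 ± 16.5 in tumours, and Mcpt8 at means of 0.50 and 1.29 CPM. The part of mast cells in the Srgn difference was not tested. Lamp2, a lysosomal membrane protein, rose by log2 0.76 (adjusted p = 0.0129). Calr, the calcium-binding chaperone calreticulin that is also found in granules, rose by log2 0.50 (adjusted p = 0.0197). Nkg7, a granule membrane protein of cytotoxic lymphocytes, fell by 0.59 on the log2 scale (adjusted p = 0.00696), from 4527 ± 415 CPM to 3005 ± 445. Nkg7 is also on the list of NK markers, so its fall and the lower sum of that list are not independent. Ctsc, the protease that activates pro-granzymes, gave log2 0.68 with an adjusted p of 0.353. Cst7, which encodes the cathepsin inhibitor cystatin F, gave log2 -0.32 with an adjusted p of 0.103. Against healthy spleens, where 30.5% of all genes were called, Srgn (log2 2.10), Calr (1.13) and Lamp2 (0.93) were called higher by edgeR and no gene of the list lower, also at an unadjusted p under 0.05 (0 genes) and by DESeq2 (0), with Nkg7 at log2 -0.34 (adjusted p = 0.134).

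Of 6 tested granzyme inhibitors, 5 passed the filter on low counts in the spleen libraries alone. Of these 5, 2 rose and 0 fell in tumour against tumour-bearing spleen, where 15.8% of all genes were called higher and 13.2% lower. By edgeR at an unadjusted p under 0.05 and by DESeq2, 0 were lower. Their median log2 difference was -0.04, against 0.001 over all genes. Serpinb9, the inhibitor of granzyme B that shields the killer cell, rose by log2 0.89 (adjusted p = 3.67e-05), from 223 ± 15.3 to 413 ± 30.8 CPM. Serpinb6b, a serpin known to bind granzyme A, rose by log2 1.17 (adjusted p = 8.15e-05), from 455 ± 134 to 1022 ± 87.4 CPM. Serpinb1a, an inhibitor best known for neutrophil proteases, rose by log2 2.58 (adjusted p = 2.86e-06) from a low level of 3.75 ± 1.13 to 22.5 ± 3.48 CPM, and neutrophil markers were higher in the same libraries. Serpinb1a passed the filter on low counts only through the tumour libraries. Its call there adds nothing to its level, and it is left out of the count above. Against healthy spleens, where 16.5% of all genes were called higher and 14.0% lower, 3 of the 5 were higher and 0 lower. These were Serpinb9 (log2 1.20), Serpinb6b (1.64) and Serpinb9b (1.25), a relative of Serpinb9. Serpinb1a was at log2 2.27. Between the spleens Serpinb9b was the single called gene of the 46, at 107 ± 20.9 CPM in healthy and 272 ± 36.4 CPM in tumour-bearing spleens (log2 1.34, adjusted p = 0.000725), in the contrast where 1.58% of all genes were called.

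The exocytosis list, which covers docking, priming and fusion of granules and the actin regulators of the synapse, was called at 4 of 19 tested genes (21.1%) in each tumour comparison, below the 29.0% and 30.5% of all genes. In tumour against tumour-bearing spleen, Stx11, the syntaxin needed for granule fusion, rose by log2 1.06 (adjusted p = 0.00085), and Dock8, an activator of the actin regulator Cdc42, rose by log2 0.53 (adjusted p = 0.0448). Sytl1, a Rab27 effector, fell by 0.56 on the log2 scale (adjusted p = 0.0196). Unc13d, which primes granules for fusion, fell by 0.35 on the log2 scale (adjusted p = 0.0452). Against healthy spleens Stx11 (log2 1.07) and Dock8 (0.59) were higher, and Sytl1 (-1.01) and Stxbp2 (-0.68), the partner of Stx11, were lower.

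Of 9 tested transcription factors linked to granzyme and perforin genes, 2 rose and 2 fell in tumour against tumour-bearing spleen, or 44.4% against 29.0% of all genes. Runx3, a RUNX factor of cytotoxic lymphocytes, rose by log2 0.65 (adjusted p = 0.000731), and Irf1, an interferon-induced factor, rose by log2 0.49 (adjusted p = 0.0169). Prdm1, which encodes Blimp-1, fell by 1.12 on the log2 scale (adjusted p = 0.00151), from 37.5 ± 7.09 to 17.3 ± 4.09 CPM. Tbx21, which encodes T-bet, fell by 0.50 on the log2 scale (adjusted p = 0.0135), from 547 ± 19.4 to 388 ± 78.4 CPM. Against healthy spleens Prdm1 (log2 -1.70, adjusted p = 3.42e-05) and Zeb2 (log2 -1.54, adjusted p = 0.0355) were called lower by edgeR and none higher (22.2% against 30.5% of all genes). At an unadjusted p under 0.05 edgeR gave 1 factor higher and 3 lower, and DESeq2 called 0 higher and 1 lower. Zeb2 rested on few counts, with 5, 0, 10 and 1 in the tumour libraries and 4, 27 and 8 in the healthy spleen libraries.

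**Figure D5:**
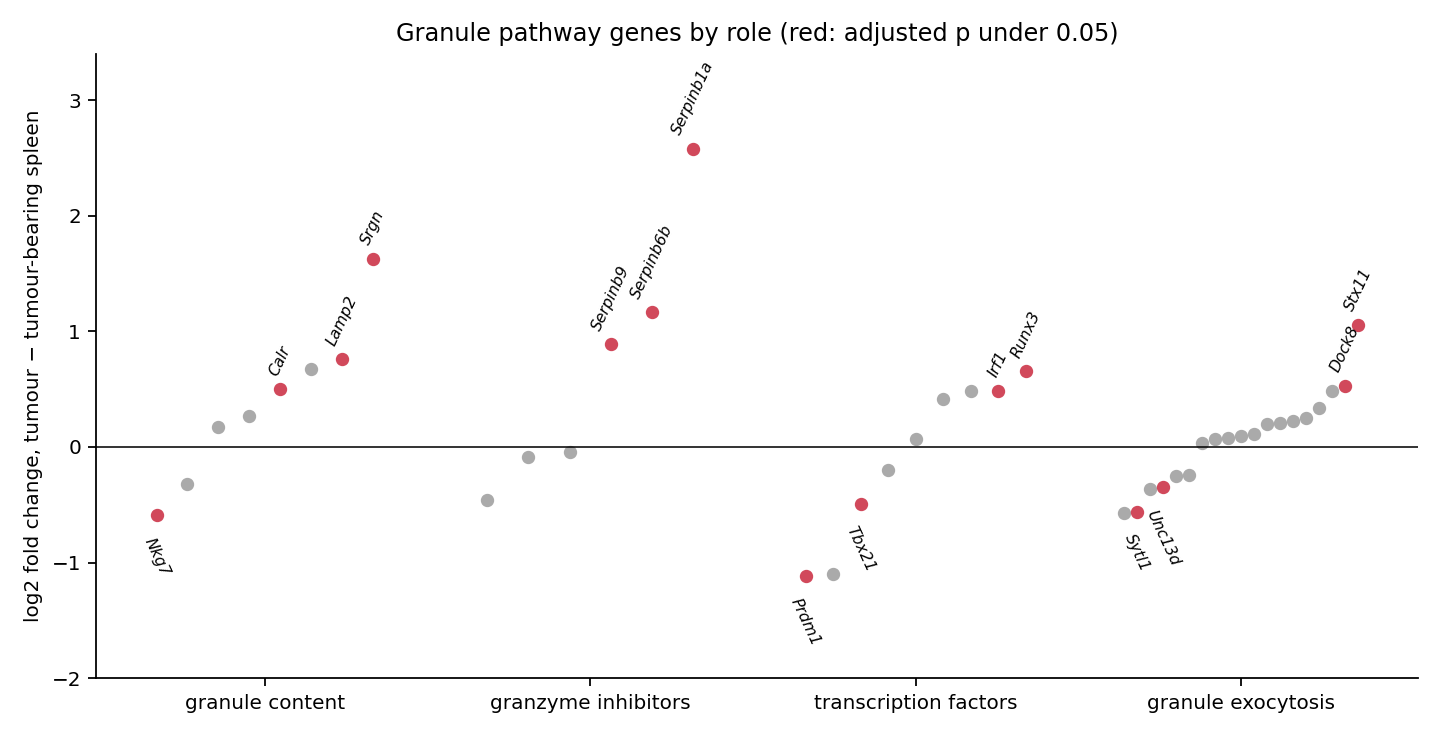
Log2 fold change of each tested gene of 4 role lists in tumour NK against tumour-bearing spleen NK, sorted within its list, with genes past an adjusted p of 0.05 in red and named. Among the named genes Serpinb1a (2.58) and Srgn (1.63) lie highest and Prdm1 (-1.12) lowest, and 15 of the 19 exocytosis genes are grey.

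The side of the spleen libraries was read from the spread within these same groups, so a block for it lowers that spread by construction, and the larger number of calls and smaller p-values under it are no independent support. With the side as a block, the comparison of the 2 spleen groups called 5 of the 46 genes higher (Serpinb9b, Cst7, Srgn, Calr and Coro1a) and 3 lower (Prdm1, Eomes and Stat4). Without it edgeR called 1 and 0, with 6 higher and 3 lower at an unadjusted p under 0.05 and 4 and 0 by DESeq2. With the block Gzmb gave log2 1.35 (adjusted p = 2.15e-10), Calr 0.70 (adjusted p = 1.4e-05), Cst7 0.61 (adjusted p = 0.000133) and Srgn 0.43 (adjusted p = 0.00634). Prf1 gave log2 0.10 (adjusted p = 0.723) and Gzma 0.04 (adjusted p = 0.889). All tested genes called in this fit numbered 456 higher and 277 lower, against 104 and 30 without the block.

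For each member the genes with the highest Pearson correlation of log2 CPM over the 11 NK libraries were listed, up to 3 a member, as a description, since the libraries share their groups. For Gzmb these were Dusp2 (r = 0.982), a phosphatase of MAP kinases, Tigit (0.980), an inhibitory receptor, and Tnfrsf9 (0.978), the costimulatory receptor 4-1BB. Tigit had 4.31 ± 1.84 CPM in healthy spleens, 23.0 ± 3.93 in tumour-bearing spleens and 55.7 ± 9.74 in tumours. For Gzmc they were Lilr4b (r = 0.996), a leukocyte immunoglobulin-like receptor, Rnf19b (0.996), a ubiquitin ligase of NK cells, and Upp1 (0.995), uridine phosphorylase. Lilr4b had 11.3 ± 8.94, 25.6 ± 14.9 and 429 ± 37.1 CPM in the 3 groups. For Prf1 the closest were Mast3 (r = 0.959), Map1s (0.957) and Ehbp1l1 (0.953), for Gzma Telo2 (0.959) and Arhgdib (0.951), and for Gzmm Vps4a (0.958), Chd3 (0.957) and Nudt22 (0.956). Mast3 went from 338 ± 16.8 and 303 ± 59.3 CPM in the spleen groups to 185 ± 30.6 in tumours.

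Libraries of sCAFs, a sorted fraction of cancer-associated fibroblasts from 4T1-GFP tumours (n = 3, negative for CD45, EPCAM, GFP, CD31 and PDPN), were in a separate table. Of the 5 members only Gzmc has a value there, with 1, 0 and 0 counts. These lie under the limit of 3 counts, which was 1.34 to 2.28 CPM in those libraries. Gzmd had 0 counts in each and Gzme 3, 2 and 1, so both were at or under the limit. The other 4 members were not analysed there.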

How the data were processed

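The authors deposited raw counts per gene symbol, whole numbers with no normalization, with separate tables for NK libraries (11) and sCAF libraries (3). Per the submitters' processing notes, bcl2fastq, STAR 2.4.2a, HTSeq and the mm10 build were used. The role and settings of each, the use of strand and of molecular identifiers are not given in the sources used here. The NK table lists only genes that reach at least 6 counts in some library, so an unlisted gene has no value and library totals count listed genes alone. Some column names in the header were parted by spaces instead of tabs, so tumour replicates 3 and 4 were read by position.

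Genes were kept by filterByExpr, scaled by TMM and tested with edgeR 4.0.16 (R 4.3.3) by the robust quasi-likelihood F test, in 1 model of all 11 NK libraries without covariates. Calls required an adjusted p (Benjamini-Hochberg, 8471 genes) under 0.05. The standard error of a log2 fold change is its size divided by the square root of F. Correlations used log2 CPM with a prior count of 2. DESeq2 1.42.0, other scalings, no filter, the compared groups alone, a replicate block, each library left out and the 2 sides of the spleen libraries were tried as alternatives. The 2 sides were themselves defined from the spread of these libraries. After the data were seen, 2 further alternatives were added: the list genes that pass the filter in the spleen libraries alone, and pooled ratios without tumour-bearing replicate 1.

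The members and lists were chosen with earlier results of these data known. Named beside the members are all other granzymes listed, Ctsc, Srgn, Cst7, Nkg7 and Serpinb9, up to 4 called genes with the largest change from each other list and comparison (mean of at least 3 counts per library in the lower group), and the 3 genes most alike to each member, of which 1 is not reported here. The lists of T, B, dendritic, fibroblast and endothelial cell markers were read too. Summed levels in healthy spleens, tumour-bearing spleens and tumours were 3.38 to 10.7, 4.16 to 6.21 and 1.40 to 3.48 CPM for B cells (Cd79b alone), 171 to 178, 250.2 to 320 and 173 to 224 CPM for dendritic cells, 6.61 to 21.4, 3.11 to 15.4 and 5.61 to 28.1 CPM for fibroblasts, and 48.2 to 81.0, 79.2 to 93.0 and 130.5 to 185 CPM for endothelium (Pecam1 alone).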

Additional observations from a re-analysis of the deposited data

Results flagged for a closer look

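Groups of 4 libraries were searched for a library far from the others by Dixon's test at the 95% level, which flags about 1 group in 20 by chance, over the 5 genes and the 2 groups of that size. In tumour-bearing spleens the Gzmb level of replicate 1 was 1031 CPM, apart from the other libraries at 1162 to 1181 CPM. Without it Gzmb stayed called, at log2 1.38 between the spleens and 0.83 between tumour and tumour-bearing spleen. In tumours the Prf1 level of replicate 1 was 477.9 CPM, apart from the others at 683 to 722 CPM. Without it Prf1 stayed lower in tumours than in tumour-bearing spleens (log2 -0.73, adjusted p = 0.0127).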

How the results depend on the processing

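Gzmb, Gzmc and Gzmm kept their direction and side of the threshold in both tumour comparisons under every alternative, as did Prf1 against healthy spleens and Gzmb between the spleens. Gzmc ran from log2 5.09 to 6.92 against tumour-bearing and from 6.70 to 8.55 against healthy spleens. Gzma against tumour-bearing and healthy spleens was called under upper-quartile scaling (log2 -0.50 and -0.47), by DESeq2 (-0.41 and -0.39) and, against tumour-bearing spleens, with only those groups fitted (-0.42). Leaving out libraries in edgeR gave -0.51 to -0.33 (adjusted p from 0.0243 to 0.183) and -0.48 to -0.31 (adjusted p from 0.0425 to 0.284). Prf1 against side A of the tumour-bearing spleens alone gave log2 -0.50 and was not called. There the genes called lower numbered 546 against 1115, and those on the granule lists 2 (9 against side B) against 5. The uncalled differences between the spleens changed sign for Prf1 with the replicate block (log2 -0.0214) and without tumour-bearing replicate 3 (-0.0878, range -0.0878 to 0.23), for Gzma without healthy replicate 1 (-0.0281) or tumour-bearing replicate 3 (-0.025, range -0.0281 to 0.0755), and for Gzmm without healthy replicate 3 (0.0327, range -0.56 to 0.0327).

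Genes called between the spleens rose to 456 higher and 277 lower with the side as a block (granule lists 5 and 3), which lowers the spread by construction, and DESeq2 called 4 granule genes higher. Left-out libraries gave 35 to 109 genes higher and 7 to 32 lower. Without healthy replicate 2 there were 35 and 7, without healthy replicate 3 59 and 8, and lower calls were 18, 19 and 16 without tumour-bearing replicates 1, 2 and 4. Against healthy spleens, genes lower in tumours ran from 782 (without healthy replicate 2) to 1317, and granule genes lower from 2 to 5, with 2 by DESeq2 or with only those groups. Against tumour-bearing spleens the latter ran from 3 (without tumour-bearing replicate 4 or tumour replicate 1) to 7. The cause was not tested.

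The sample titles do not say whether same-numbered tumour-bearing spleen and tumour libraries came from the same mice. The main fit did not pair them. Their deviations from the group means correlated at -0.05, 0.29, 0.002 and 0.21 for replicates 1 to 4, and such values cannot decide whether they share animals. Over all 10 same-numbered pairs, including those with healthy spleens, the range was -0.35 to 0.50. The replicate block moved genes called lower between the spleens to 18 from 30 and changed no other count by over 1.5 times. Group levels of the members moved by less than 1 SD on listed totals or DESeq2 size factors. Low counts limit Gzmd, Gzme and Gzmf in spleens (0 to 4 a library) and Gzmc in healthy replicates 2 and 3 (3 each). Gzmm had 10 to 34 counts a library in tumours.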
